A study of Mus musculus with 14 samples.

Results

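A set of 9 dendritic cell genes was followed in RNA-seq libraries of fibro-adipogenic progenitors (FAPs), the mesenchymal stromal cells of skeletal muscle. They are Irf8, Batf3, Zbtb46, Flt3, Clec9a, Xcr1, Cd209a, Itgax and Ccr7, and they were matched by gene symbol in both deposited tables. All 9 members were listed among the 56953 genes of the BaCl2 table, and 8 were listed among the 14330 genes of the glycerol table, where Clec9a was not listed. After a filter on low counts 8 members could be tested after BaCl2, since Xcr1 was too low, and all 8 listed members could be tested after glycerol. Primary FAPs had been isolated from the tibialis anterior (TA) muscle of SMA and wild-type (WT) mice by magnetic sorting 3 days after injury. Injury was by BaCl2, with 3 SMA and 3 WT libraries, or by glycerol, with 4 SMA and 4 WT libraries. The labels name neither the SMA allele, the sorting antibodies, nor the age of the mice, and no uninjured library was analysed here. They do not say that replicates came from separate animals, so p-values measure the spread between these libraries, which may be technical. Since each injury is also its own batch in the labels, an effect of injury cannot be told apart from one of batch.

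Dendritic cells are blood-derived cells that take up antigen and present it to T cells on major histocompatibility complex (MHC) class II molecules. Their precursors depend on the receptor Flt3 and its ligand. IRF8 and BATF3 are needed for the conventional type 1 subset, which carries Clec9a and Xcr1, while Cd209a marks type 2 and monocyte-derived cells and Ccr7 guides mature cells to lymph nodes. None of these genes is exclusive: monocytes and macrophages also express Irf8 and Itgax, and endothelial cells also express Zbtb46.

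Total counts of the BaCl2 libraries ran from 97.7 M to 136 M (M for mega), and their levels are given as counts per M of the scaled library total (CPM). The glycerol levels are the authors' normalized counts, whose depth is unknown, and levels were not compared between the tables. The FAP marker Pdgfra lay at 714 to 1015 CPM after BaCl2 and did not pass the test after either injury (log2 fold change, SMA minus WT throughout, -0.04 and -0.10). The pan-leukocyte gene Ptprc (CD45) lay at 65.1 to 76.6 CPM in SMA and 28.3 to 45.9 CPM in WT libraries after BaCl2. It was higher in SMA after both injuries (log2 fold change 0.92, adjusted p = 0.0105, and 1.22, adjusted p = 0.034). With SMA libraries 1 and 2 left out after BaCl2 a lone SMA library remains, and the Ptprc value was 0.80. SMA libraries 1 and 2 after BaCl2 stood apart in Hal, at 16.0 and 15.9 CPM against 0.205 to 0.510 CPM in the other 4. SMA library 3 after glycerol had the lowest summed level of macrophage markers among the SMA libraries. The members are also given without these libraries, as are those counts of gene lists that are read.

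Irf8, the transcription factor that directs type 1 dendritic cell and monocyte development, was higher in SMA than in WT FAP libraries after BaCl2. Its level was 22.2, 19.9 and 17.2 CPM in the SMA libraries and 14.3, 10.4 and 12.1 CPM in the WT libraries. Every SMA library lay above every WT library. The log2 fold change was 0.69 (SE 0.13, adjusted p = 0.0172 by the edgeR quasi-likelihood test). In such bulk samples, more cells of a type and more RNA per cell cannot be told apart. After glycerol, Irf8 stood at 2538, 2822, 1443 and 2940 normalized counts in the SMA libraries and at 1162, 1306, 1319 and 1255 in the WT libraries. The groups again did not overlap, and SMA library 3 lay nearest to the WT libraries. The log2 fold change of 0.90 (SE 0.20, on log2 of the value plus 1) narrowly missed the threshold (limma adjusted p = 0.0507). Without SMA library 3 it was 1.13 (limma adjusted p = 0.000274), in a fit where 11.5% of all genes passed. Leaving out the lowest SMA library had to raise this fold. The BaCl2 call ended without SMA library 2 (adjusted p = 0.0783), WT library 2 (0.0827) or WT library 3 (0.1). Of the BaCl2 fits with 1 library left out, the one without WT library 3 called the fewest of all genes. The lost Irf8 call there cannot be told apart from a general loss of calls. With SMA libraries 1 and 2 both left out the log2 fold change of Irf8 was 0.49. That fit assumes the lone SMA library to vary like the WT libraries.

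Itgax encodes CD11c, the integrin chain by which dendritic cells are commonly recognised. It measured 5.20, 6.85 and 5.21 CPM in the SMA libraries after BaCl2, and 4.03, 2.55 and 3.08 CPM in the WT libraries. All SMA libraries were above all WT libraries, with a log2 fold change of 0.84 (SE 0.19, adjusted p = 0.034). After glycerol the SMA libraries held 493, 422, 150 and 424 normalized counts and the WT libraries 313, 168, 236 and 254. SMA library 3 was the lowest of the 8, so the groups overlapped. The fold change was 0.52 (SE 0.36, limma adjusted p = 0.423), and without SMA library 3 it was 0.91 (limma adjusted p = 0.0222). This fold too had to rise once the lowest SMA library was left out. The BaCl2 call of Itgax ended without SMA library 2 (adjusted p = 0.147), WT library 2 (0.137) or WT library 3 (0.152). For WT library 3 this too cannot be told apart from a general loss of calls. With SMA libraries 1 and 2 both left out, and so a lone SMA library, the log2 fold change of Itgax was 0.69. Of the 50-base stretches of Itgax transcripts, 8.02% also occur in the related integrin gene Itgad, which was too low to test after BaCl2.

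The RefSeq promoters of these 2 members are shown because these were the members that passed the test. Each runs over the 250 bases before the transcription start, on build GRCm38.p6, plus strand. RefSeq lists 2 Irf8 starts, and the upstream one is shown, since the window of the other held no match. The Irf8 window is chr8:120736108-120736357 and the Itgax window is chr7:128129300-128129549. Capitals mark matches, on either strand, to a STAT binding motif (GAS, TTCNNNGAA), a Y box (ATTGG or its complement CCAAT), and an AP-1 motif (TGANTCA). Searches were also made for a PU.1 motif (GAGGAAGT) and the start of an interferon response motif (GAAANNGAA), neither of which occurs in these windows.
Irf8: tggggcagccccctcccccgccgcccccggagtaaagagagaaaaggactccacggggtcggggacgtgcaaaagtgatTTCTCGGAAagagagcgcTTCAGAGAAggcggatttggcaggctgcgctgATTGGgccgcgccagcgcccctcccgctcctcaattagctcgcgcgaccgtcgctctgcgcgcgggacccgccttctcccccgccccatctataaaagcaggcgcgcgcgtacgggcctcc
Itgax: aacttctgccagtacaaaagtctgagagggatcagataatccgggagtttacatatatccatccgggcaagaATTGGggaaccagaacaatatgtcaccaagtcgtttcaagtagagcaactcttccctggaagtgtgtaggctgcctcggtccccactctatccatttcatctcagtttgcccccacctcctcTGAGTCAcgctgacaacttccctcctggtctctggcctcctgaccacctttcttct
Irf8 holds GAS matches at -171 and -153 and a Y box at -121 bases from the start, and Itgax a Y box at -178 and an AP-1 match at -56. Of 32851 promoters of this length, 7.02% hold a GAS match, 33.8% a Y box, 6.75% an AP-1 match, 2.44% a PU.1 match and 7.13% an interferon response match. Of the 9 members 8 had a promoter entry, and Ccr7 had none. A match describes the letters and is not a bound site, and the data hold no measure of binding.

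Batf3 and Zbtb46, the other transcription factors among the members, did not pass after either injury. Batf3, the partner of Irf8 in type 1 dendritic cells, measured 0.823, 0.427 and 0.464 CPM in SMA and 0.455, 0.614 and 0.543 CPM in WT libraries after BaCl2. SMA library 1 was highest and SMA library 2 lowest, so the WT range lay inside the SMA range. Batf3 had log2 fold changes of 0.08 (SE 0.33, adjusted p = 0.934) after BaCl2 and 0.03 (SE 0.21, adjusted p = 0.959) after glycerol. Its glycerol levels were 43.8, 42.3, 34.5 and 41.1 normalized counts in SMA and 43.2, 49.4, 35.8 and 31.9 in WT libraries, again overlapping. Zbtb46, a factor that conventional dendritic cells share with endothelial cells, measured 11.7, 9.80 and 9.57 CPM in SMA and 11.2, 12.2 and 9.56 CPM in WT libraries. Its log2 fold changes were -0.09 (SE 0.12, adjusted p = 0.759) after BaCl2 and -0.18 (SE 0.18, adjusted p = 0.583) after glycerol, with overlapping groups after both. The glycerol values were 327, 334, 454 and 459 normalized counts in SMA and 440, 355, 413 and 583 in WT libraries, where WT library 4 was highest.

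Flt3, the receptor for the growth factor of dendritic cell precursors, was low throughout. After BaCl2 the SMA libraries held 53, 78 and 63 counts (0.519, 0.574 and 0.487 CPM) and the WT libraries 62, 26 and 20 (0.455, 0.225 and 0.151 CPM). The groups did not overlap, but WT library 1 reached close to the SMA values. Flt3 did not pass after BaCl2 (0.92, SE 0.42, adjusted p = 0.263), nor after glycerol (0.86, SE 0.60, adjusted p = 0.425), where SMA values of 17.2, 27.3, 6.65 and 37.5 stood against WT values of 4.91, 13.8, 6.20 and 21.4 normalized counts. Clec9a encodes a receptor for actin exposed on dead cells and is a type 1 dendritic cell marker. Its counts after BaCl2 were 70, 170 and 141 in SMA and 180, 115 and 144 in WT libraries, a log2 fold change of -0.16 (SE 0.26, adjusted p = 0.802). Its groups overlapped, and 5.59% of its exonic bases are shared with the same-strand gene Clec1b, so its counts are uncertain.

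Xcr1, the chemokine receptor of type 1 dendritic cells, was close to the detection limit after BaCl2. The SMA libraries held 4, 7 and 6 counts and the WT libraries 7, 0 and 2. A count of 0 in WT library 2 allows up to 0.0259 CPM, a limit for counting error only. No fold is given for so few counts. Of the 50-base stretches of Xcr1 transcripts, 1.43% also occur in transcripts of 179 other genes. After glycerol Xcr1 measured 10.5, 20.2, 21.0 and 15.0 normalized counts in SMA and 17.7, 11.0, 10.8 and 8.35 in WT libraries. The groups overlapped (log2 fold change 0.45, SE 0.35, adjusted p = 0.478).

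Cd209a is a C-type lectin of type 2 and monocyte-derived dendritic cells. After BaCl2 its counts were 96, 78 and 46 in SMA (0.94, 0.574 and 0.356 CPM) and 55, 34 and 56 in WT libraries (0.403, 0.294 and 0.423 CPM). SMA library 3 lay within the WT range, and the log2 fold change was 0.73 (SE 0.39, adjusted p = 0.344). With SMA libraries 1 and 2 left out it was -0.073. After glycerol the SMA libraries held 46.2, 41.2, 22.9 and 55.6 normalized counts and the WT libraries 15.4, 7.29, 14.2 and 26.6. SMA library 3 lay below WT library 4, so the groups overlapped by that pair. The log2 fold change of 1.39 (SE 0.42) did not pass (limma adjusted p = 0.0955). Without SMA library 3, the lowest SMA library, the fold had to rise, and it was 1.64 (limma adjusted p = 0.0367). In the authors' deposited table, Cd209a passed after glycerol with a log2 fold change of 1.38 and an adjusted p of 0.0243, and Irf8 with 0.95 and 7.76e-05.

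Ccr7, the receptor that brings mature dendritic cells to lymph nodes, measured 0.548, 0.478 and 0.502 CPM in SMA and 0.623, 0.709 and 0.302 CPM in WT libraries after BaCl2. The WT libraries spread more widely than the SMA libraries and enclosed them. After glycerol it measured 34.5, 25.3, 46.4 and 51.2 normalized counts in SMA and 35.2, 21.2, 37.6 and 38.0 in WT libraries. The log2 fold changes were -0.09 (SE 0.35, adjusted p = 0.926) and 0.23 (SE 0.30, adjusted p = 0.682).

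**Figure D1:**
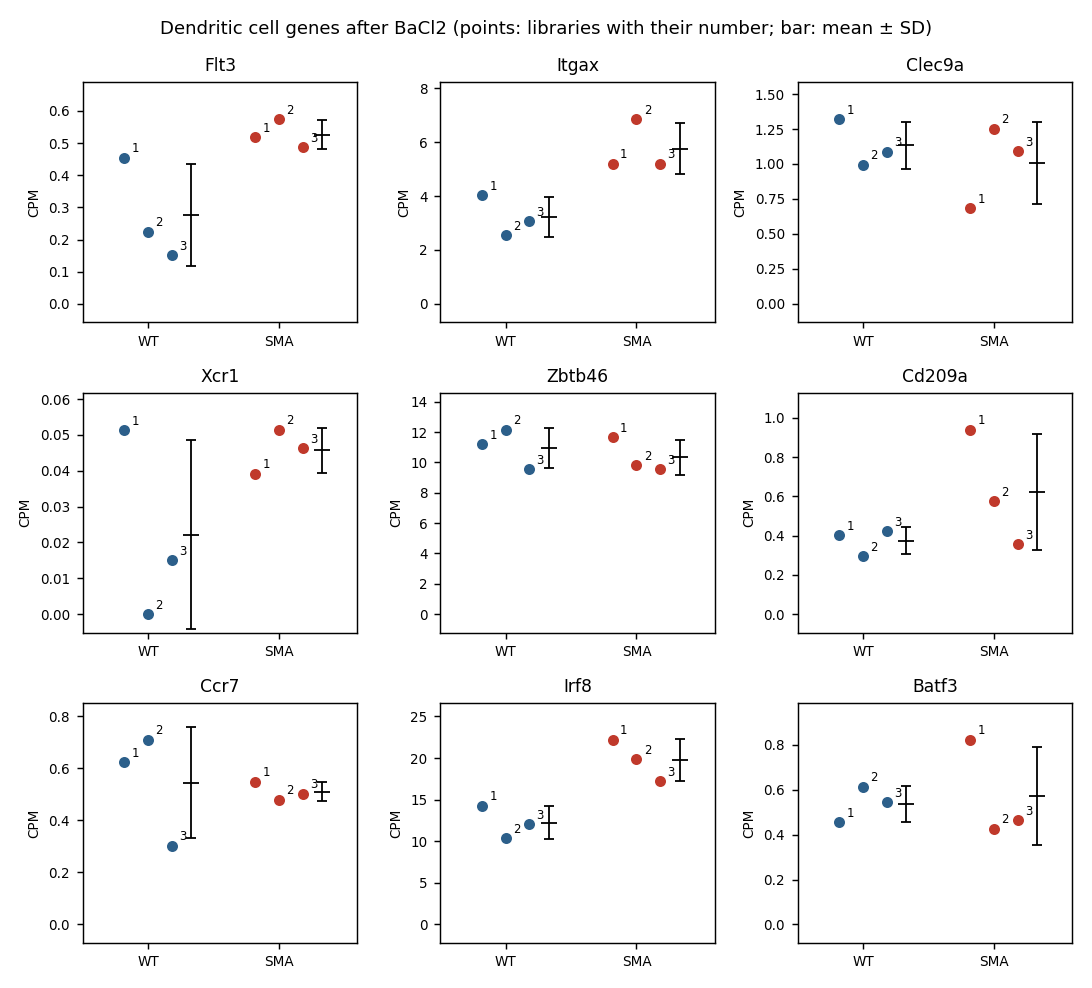
Level of each member after BaCl2 in CPM (vertical axis, linear), for 3 WT and 3 SMA libraries, with points numbered by library and the mean with its SD beside them. Irf8, Itgax and Flt3 have every SMA point above every WT point, and Xcr1 reaches at most 0.0515 CPM.

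**Figure D2:**
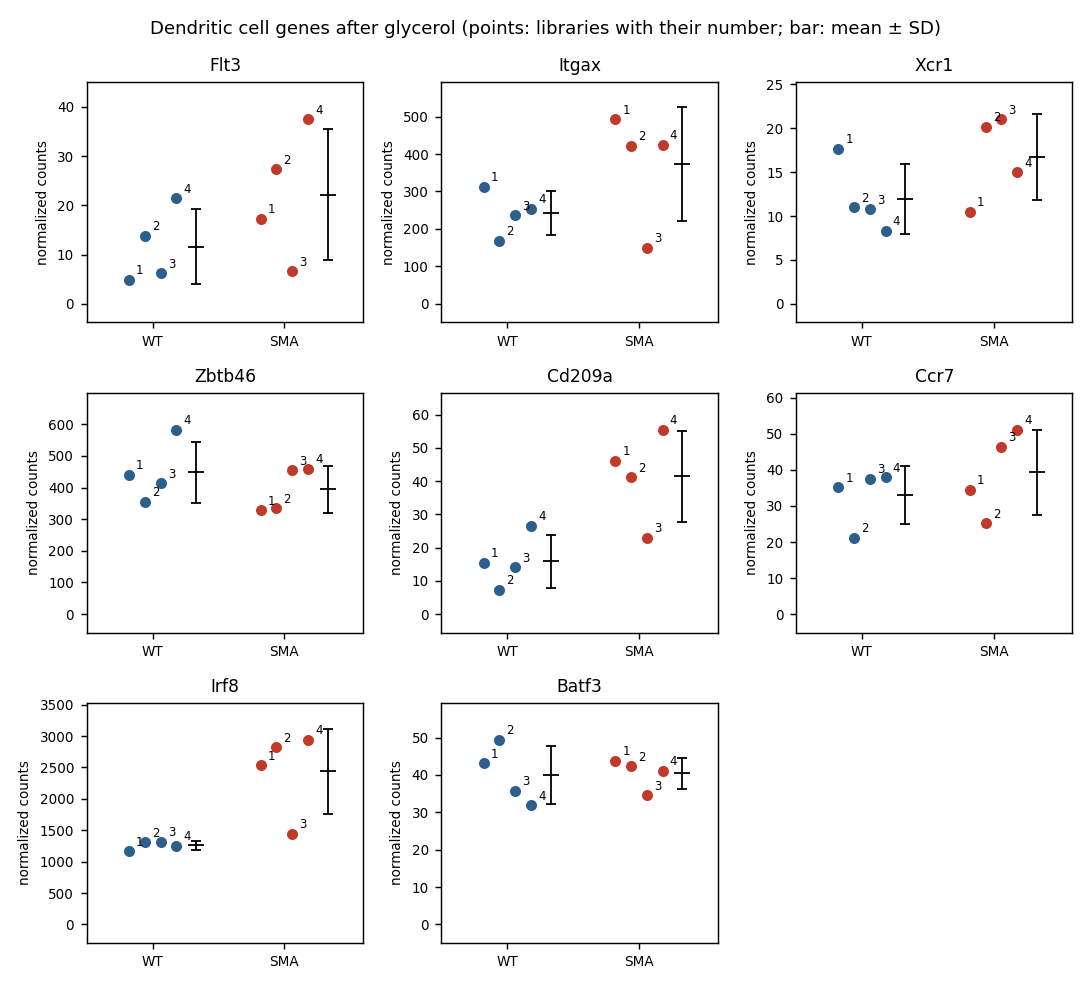
Level of each listed member after glycerol in the authors' normalized counts (vertical axis, linear), for 4 WT and 4 SMA libraries, with points numbered by library and the mean with its SD. Irf8 is the member whose groups do not overlap, and SMA library 3 is the lowest SMA point for Irf8, Itgax, Flt3, Cd209a and Batf3.

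Counted together, 2 of 8 members tested passed after BaCl2, both higher, against 4.29% of all 20119 genes tested in either direction and 2.73% in the higher direction. The median log2 fold change of the members was 0.39, against -0.0028 over all genes. Their groups did not overlap for 3 of 8 members, all with SMA above WT, against 12.2% of all genes in that direction. After glycerol 0 of 8 passed by limma, against 2.87% of 14330 genes in either direction and 1.7% in the higher direction. An unadjusted p under 0.05 was reached by 2 of them, Irf8 and Cd209a, and by 23.3% of all genes. Fitted without a mean-variance trend, limma gave 0 members, but only 2 of all genes passed that fit, so nothing is read from it. In the main glycerol fit the median was 0.48 against -2.03e-05 over all genes, and 7 of 8 were positive. For 1 of 8, Irf8, the groups did not overlap, with SMA above WT, against 6.59% of all genes. Without SMA library 3, 3 members passed (Irf8, Itgax and Cd209a), all higher, against 11.5% of all genes in either direction and 7.54% in the higher direction. That library was the lowest SMA library for all 3. With 1 library left out at a time, member calls after glycerol ranged from 0 to 3.

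Two-sided exact permutation tests of single members can reach no lower than p = 0.1 with 3 against 3 libraries and p = 0.0286 with 4 against 4. Irf8 gave these smallest values after both injuries (exact permutation p = 0.1 and 0.0286, adjusted 0.278 and 0.143 over the 25 such tests of members and class II genes). Cd209a gave an exact permutation p of 0.0571 after glycerol (adjusted 0.238). Itgax and Flt3 gave 0.1 after BaCl2 (exact permutation, adjusted 0.278) and 0.314 and 0.229 after glycerol. For Clec9a, Xcr1, Zbtb46, Ccr7 and Batf3 the exact permutation p was 0.2 or higher after either injury.

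The question the injuries pose is whether the genotype effect differs between them. None of the 7 members fitted in both tables passed a z test of the difference of the log2 fold changes, glycerol minus BaCl2, against 10.5% of 13960 genes in either direction and 5.53% in the higher direction. None had an unadjusted p under 0.05, against 24.6% of all genes. By a t distribution with Welch-Satterthwaite degrees of freedom, which called 3.8% of genes (1.88% higher), 0 members passed as well. The difference for Irf8 was 0.21 with a 95% interval from -0.30 to 0.71, and for Itgax it was -0.32 (-1.20 to 0.55). For Cd209a the difference was 0.66 (-0.52 to 1.85) and for Flt3 -0.06 (-1.62 to 1.49), so the intervals of both low genes are wide. The intervals were -0.64 to 1.29 for Ccr7, -0.88 to 0.77 for Batf3 and -0.54 to 0.36 for Zbtb46. Without glycerol SMA library 3, the lowest SMA library for Irf8, its difference was 0.44 and passed the z test (adjusted p = 0.0262). In that setting 14% of all genes passed in either direction. Ptprc passed as well (0.55, adjusted p = 0.0284 by z), as did 4 of 20 macrophage markers. The t distribution was not applied there.

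MHC class II genes were set beside the members because dendritic cells express them highly. The difference between injuries passed the z test for 7 of the 16 class II antigen presentation genes fitted in both tables, against 10.5% of all genes, and for 6 by the t distribution. H2-Aa, a class II alpha chain, lay at 3323, 3696, 1805 and 3493 normalized counts in SMA and at 651, 767, 822 and 999 in WT libraries after glycerol. After BaCl2 it lay at 27.7, 34.5 and 32.6 CPM in SMA and at 39.4, 26.1 and 25.5 CPM in WT libraries. The groups were separate after glycerol and overlapped after BaCl2. The difference of its genotype effect was 1.83 (95% interval 1.25 to 2.41, adjusted p = 4.68e-08 by z and 0.00709 by t). Ciita, the master regulator of class II transcription, had log2 fold changes of -0.13 after BaCl2 and 2.17 after glycerol, a difference of 2.30 (1.25 to 3.35). The intervals for H2-Eb1 (1.03 to 2.21), H2-Ab1 (0.61 to 1.83) and the invariant chain Cd74 (0.83 to 1.87) also lay above 0. For H2-DMa and H2-DMb1, which encode a factor for peptide loading, they were 0.36 to 1.16 and 0.40 to 1.56. Whether the difference of a member differs from that of a class II gene was not tested.

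**Figure D3:**
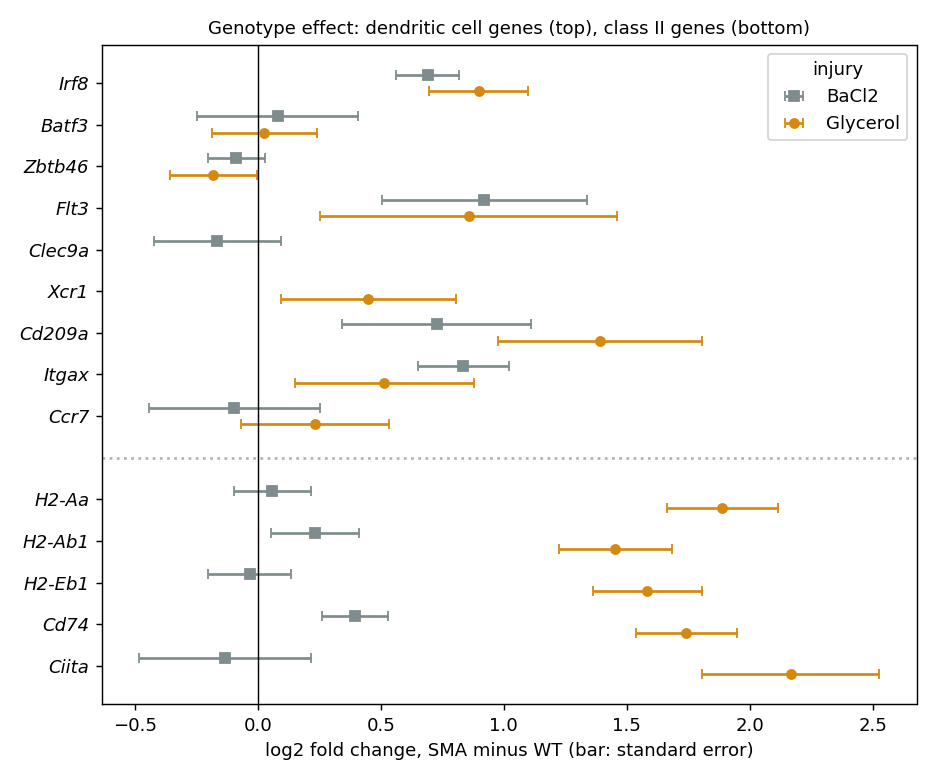
Log2 fold change of SMA against WT (horizontal axis, bars are standard errors) for the members above the dotted line and class II genes below it, after BaCl2 (squares) and glycerol (circles). The bars of both injuries overlap for each of the 7 members fitted in both tables, whereas H2-Aa stands near 0.06 after BaCl2 and 1.89 after glycerol.

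Of 18 class II antigen presentation genes, 3 of 16 tested were higher after BaCl2 and 11 of 16 after glycerol. Over all genes 2.73% and 1.7% were higher. The medians of the class II genes were 0.38 and 1.33. The 3 were the proteases Ctss (0.80) and Lgmn (0.59) and the thiol reductase Ifi30 (0.47), none of them a class II chain. In the authors' deposited values after BaCl2, Cd74 (0.41), H2-DMa (0.38) and H2-DMb1 (0.43) also had an adjusted p under 0.05. H2-Aa, H2-Ab1 and H2-Eb1 did not pass there. The 11 were H2-Aa, H2-Ab1, H2-Eb1, H2-DMa, H2-DMb1, H2-DMb2, H2-Ob, Cd74, Ciita, Ctss and the ubiquitin ligase Marchf1. For the difference between injuries H2-DMb1 was the gene lost by t (adjusted p = 0.056), and the 9 genes that did not pass by z include H2-Ob, H2-DMb2 and Ctss. The glycerol calls depended on the libraries: 0 class II genes passed without SMA library 1, 2 or 4 or WT library 1, 2 or 3, 6 passed without WT library 4, and 13 without SMA library 3. The number of all genes passing also varied widely with the library left out. It was 11.5% without SMA library 3, against 2.87% in the main fit. A change in class II calls therefore cannot be told apart from a change in calls over all genes. Without a mean-variance trend 0 passed, but only 2 of all genes passed that fit, so it says little about class II genes. The count for the difference between injuries stayed at 7 to 8 by z with any 1 library left out.

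Macrophage and monocyte markers were also higher in SMA. Of 20 such genes, 16 were higher after BaCl2 (among them Fcgr1 0.90, Cx3cr1 1.23 and Adgre1 0.98) and 6 after glycerol (Ccr2 1.15, Cd14 0.97, Ms4a7 1.29 and Ly6c2 1.30 among them). Over all genes 2.73% were higher after BaCl2 and 1.7% after glycerol. The medians of the 20 markers were 0.94 and 0.98. With BaCl2 SMA libraries 1 and 2 left out a lone SMA library remains, so calls there are not read. With glycerol SMA library 3 left out 18 of 20 passed, all higher. In that fit 11.5% of all genes passed in either direction and 7.54% in the higher direction. None of the 20 markers was at 0 in every library. Their summed level was 2212 to 3315 CPM in SMA and 1233 to 1703 CPM in WT libraries after BaCl2. After glycerol it was 130643 to 316779 normalized counts in SMA and 114210 to 146184 in WT libraries, with SMA library 3 the lowest of the SMA libraries. For the difference between injuries 0 of 20 passed upward and 1, Cd163, downward by z (adjusted p = 0.114 by t). By z 10.5% of all genes passed in either direction. Their part in the members' levels was not tested beyond the ratios that follow.

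As a share of the macrophage marker sum, a measure added after the data were seen, Irf8 stood at 0.669% to 0.779% in SMA and 0.837% to 0.914% in WT libraries after BaCl2. The SMA libraries all lay below the WT libraries (exact permutation p = 0.1, the smallest possible, adjusted 0.2 over 14 such comparisons). The same held for 73.7% of all genes tested, since the marker sum itself was separated between the genotypes after BaCl2, so nothing is read from this order. After glycerol the Irf8 share was 0.928% to 1.11% in SMA and 0.815% to 1.14% in WT libraries, which overlapped (exact permutation p = 0.371, adjusted 0.509). The Itgax share overlapped after both injuries (exact permutation p = 0.9 and 0.314), as did that of Flt3 (0.8 and 0.771) and Cd209a (0.4 and 0.114), with adjusted values of 0.2 to 0.9. H2-Aa, H2-Ab1, H2-Eb1 and Cd74 summed to 4.17% to 6.84% in SMA and 8.48% to 9.92% in WT libraries after BaCl2 (exact permutation p = 0.1, adjusted 0.2), an order they share with the same 73.7% of genes. After glycerol they summed to 5.48% to 7.36% in SMA and 2.71% to 3.94% in WT libraries, with no overlap (exact permutation p = 0.0286, the smallest possible, adjusted 0.133). There 0.53% of all genes had every SMA share above every WT share.

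**Figure D4:**
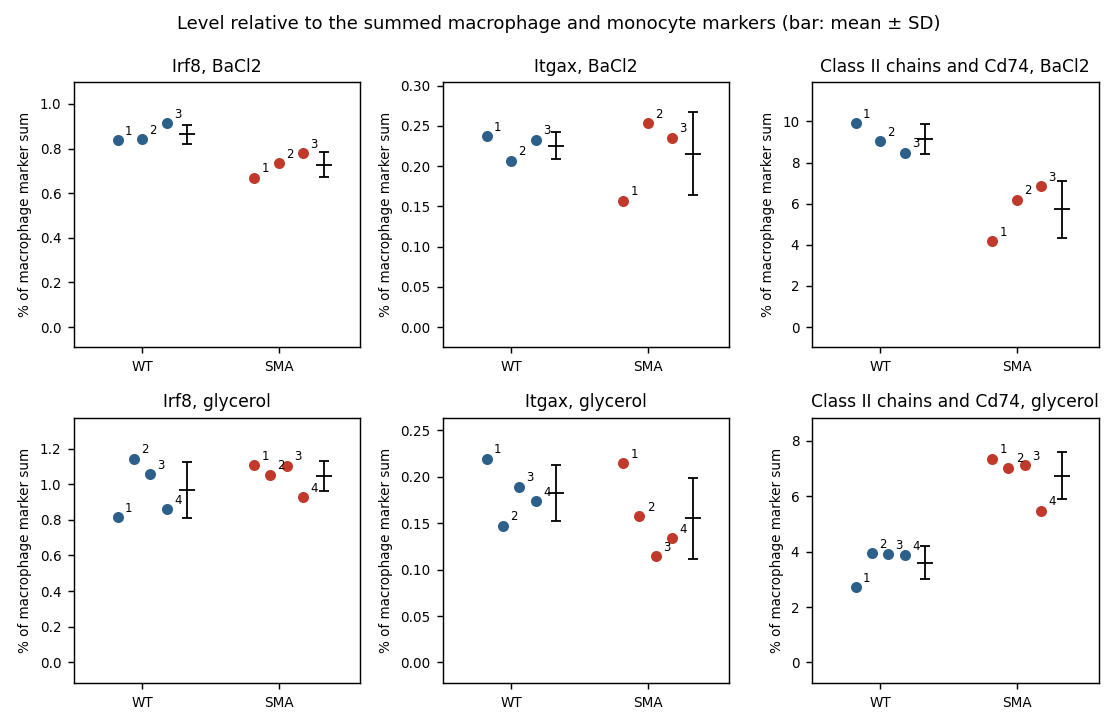
Level as a percent of the summed macrophage and monocyte markers (vertical axis) for Irf8, Itgax and the 4 class II genes, by injury, with numbered libraries and the mean with its SD. Irf8 and the class II genes lie lower in SMA after BaCl2, as do 73.7% of all genes on this scale, and the class II genes lie higher in SMA after glycerol.

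Among other genes of dendritic cells, the mature cell list had 5 of 18 passing after BaCl2 and 5 of 17 after glycerol, against 4.29% and 2.87% of all genes. Of the other type 1 genes, 2 of 10 were higher after BaCl2, Wdfy4 (1.08), needed for cross-presentation, and the factor Id2 (0.52), and 0 of 8 passed after glycerol. Of the other type 2 and monocyte-derived genes, 2 of 14 were higher after BaCl2 (Cd24a 1.16 and Clec4a2 0.98) and 1 of 14 after glycerol (Kmo 1.64). Mature dendritic cell genes had 4 of 18 higher after BaCl2 (among them Cd83 0.85, Cd274 0.72 and Cd40 0.75), with Socs2 lower (-0.30). After glycerol 5 of 17 were higher (among them Cd83 1.23, Cd274 0.85, Il15 0.82 and Cd86 0.81). Cd83, Cd86 and Cd274 are also expressed by macrophages. With BaCl2 SMA libraries 1 and 2 left out a lone SMA library remains, so calls in the type 1, type 2 and mature lists are not read. With glycerol SMA library 3 left out 6 of 8 type 1 genes passed (5 higher), with 8 of 14 type 2 and 7 of 17 mature genes higher, against 11.5% of all genes.

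Plasmacytoid genes split after BaCl2, with Lair1 higher (0.89) and Bst2 lower (-0.56) among 8 tested, and Lair1 alone passed after glycerol (1.32). Siglech, the defining plasmacytoid marker, was too low to test after BaCl2. Among transcription factors Spi1 (PU.1, 0.91), Ikzf1 (0.90) and Id2 were higher and Bcl6 lower (-0.29) of 13 after BaCl2, and 0 of 13 passed after glycerol. Of the ligands and growth factors tested, Icam1 was higher (0.45) and Il34 lower (-0.50) of 8 after BaCl2, and 0 of 7 passed after glycerol. Flt3l, the ligand of Flt3, had -0.48 after BaCl2 (adjusted p = 0.125) and -0.021 after glycerol. In the main fits 4.29% of all genes passed after BaCl2 and 2.87% after glycerol. With BaCl2 SMA libraries 1 and 2 left out a lone SMA library remains, so calls in these 3 lists are not read. With glycerol SMA library 3 left out 5 of 13 transcription factors and 1 of 8 plasmacytoid genes were higher. There 1 of 7 ligands was lower. Over all genes 11.5% passed that fit in either direction and 7.54% in the higher direction.

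For the difference between injuries, the genes of these lists that passed the z test were all higher, against a background of 10.5% of all genes in either direction and 5.53% higher. They were Naaa (0.74) of 8 other type 1 genes, Ccl5 (1.47) and Il15 (1.10) of 16 mature genes, Bst2 (1.004) of 7 plasmacytoid genes, Bcl6 (0.43) and Cebpa (0.47) of 13 transcription factors, and Il34 (0.53) of 7 ligands, against 0 of 14 other type 2 genes. Bst2 and Cebpa did not pass by the t distribution (adjusted p = 0.0549 and 0.0577). These genes were named after their values were seen. Naaa encodes a lysosomal amidase used as a type 1 marker, and its log2 fold changes were -0.17 after BaCl2 and 0.58 after glycerol.

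Markers of other blood cells summed to far less than those of macrophages, but the sums cover unlike gene sets and do not rank cell types. After glycerol 20 of 20 macrophage, 5 of 10 B cell, 2 of 14 T and NK cell and 6 of 10 neutrophil genes were listed. B cell genes summed to 4.17 to 5.29 CPM in SMA and 3.40 to 4.55 CPM in WT libraries after BaCl2, where 0 of 6 passed, and Cd22 (1.49) was higher of 5 after glycerol. There the 5 listed B cell genes summed to 610.0 to 789 normalized counts in SMA and 299 to 430.3 in WT libraries. Among T and NK cell genes 0 of 5 passed after BaCl2, and Cd3d, Cd3g, Cd8a, Cd8b1 and Ncr1 were at 0 in all 6 libraries. Cd4, which mouse macrophages and dendritic cells can also express, was higher after glycerol (1.29). The neutrophil gene Csf3r was higher after both injuries (1.16 and 1.21). Neutrophil genes summed to 15.3 to 29.0 CPM in SMA and 8.23 to 11.1 CPM in WT libraries after BaCl2, and to 1298 to 2208 and 757 to 1209 normalized counts after glycerol. FAP markers had 6 of 15 lower after BaCl2, among them Vcam1 (-0.47), Col3a1 (-0.49), Col6a1 (-0.53) and Dpt (-0.56), and 0 of 15 after glycerol. For the difference between injuries 6 of 15 FAP markers passed upward by z (Dpt 0.86, Ly6a 0.69, Col6a1 0.62, Gsn 0.62, Lum 0.51 and Dcn 0.40), of which Dpt and Col6a1 also passed by t, and Cd4 passed by both (1.30). These were named after their values were seen. For the difference 5.53% of all genes were higher by z and 1.88% by t. In the main fits 4.29% of all genes passed after BaCl2 and 2.87% after glycerol. With BaCl2 SMA libraries 1 and 2 left out a lone SMA library remains, so calls in these lists are not read. With glycerol SMA library 3 left out, 2 of 5 B cell, 1 of 2 T and NK cell and 2 of 6 neutrophil genes were higher. Over all genes 7.54% were higher in that fit. The summed FAP markers lay at 43812 to 57392 CPM in SMA and 65002 to 72362 CPM in WT libraries after BaCl2, and the genotypes overlapped after glycerol. The part of these cells in the members' levels was not tested.

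Genes whose pattern was most like a member were found by the Pearson correlation over the 14 libraries, after removing the mean of each genotype and injury group. Libraries share depth and composition, so these are descriptions. Irf8 was most like Cd52, Arhgap9 and Rilpl2 (r = 0.967 each), and Itgax most like Spp1 (0.934), Gpnmb (0.933) and Dynlt1-ps1 (0.923). Cd209a was most like Npl (0.921), Wdr27 (0.917) and Lpar5 (0.910), and Flt3 most like Mitf (0.968), Sft2d2 (0.942) and Gna13 (0.928). For Zbtb46 they were Pdlim1 (0.936), Pgs1 (0.935) and Serpinb2 (0.923), for Ccr7 Pank2 (0.947), Alg8 (0.923) and Ndufaf4 (0.901), and for Batf3 Pde4a (0.885), Max (0.874) and Slc4a1ap (0.867).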

How the data were processed

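RNA had been extracted from freshly isolated cells, poly(A)-selected and made into directional libraries, per the labels' protocols. Tools named in the submitters' processing notes are fastp, featureCounts, Salmon and DESeq2, with neither version nor role, and the genome build is not given in the sources used here. BaCl2 counts are whole-number counts per gene as deposited. For glycerol the deposited signal is a normalized count per gene, with a lowest gene mean of 7.79. Whole steps (tolerance 0.1) held at most 50.6% of its low values, so reads could not be recovered and depth is unknown there. Log2 fold changes and adjusted p-values in the authors' deposited tables were only set beside the fits made here. Another 6 columns of per-sample values were not used.

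Fits used limma 3.58.1, edgeR 4.0.16 and DESeq2 1.42.0 under R 4.3.3. BaCl2 counts were filtered with filterByExpr (minimum count 10), scaled with TMM factors (0.953 to 1.05) and tested with edgeR's quasi-likelihood F test. At the lowest library total of 97.7 M counts, members under 1 CPM rest on few counts. The plan had assumed that the glycerol table might hold counts. Its log2(value + 1) was tested with limma with a mean-variance trend. P-values were adjusted by Benjamini-Hochberg over all genes tested, with a threshold of 0.05. The difference between injuries was tested on 13960 genes matched by identifier, by a z test and a Welch-Satterthwaite t test. Scripts were tested on simulated data, where the z test made more false calls than the t test, so both are given.

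The members and the gene lists were chosen with earlier results of these data known. Every member is named. Of the class II list, genes passing in either injury and the defining chains and Cd74 are named, and of other lists up to 4 passing genes with the smallest p per injury. Hal, Cd163 and the genes of other lists named for the difference were chosen after their values were seen, and 1 gene that the rule names is not reported here. Alternatives were DESeq2, RLE scaling, no low-count filter, limma for BaCl2, another pseudocount (8), a minimum mean of 50, no trend, TMM rescaling, a replicate block and leaving out each library. Leaving out BaCl2 SMA libraries 1 and 2 together, counting each list without them or without glycerol SMA library 3, and the ratio to macrophage markers were added after the data were seen.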

Additional observations from a re-analysis of the deposited data

Results flagged for a closer look

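Of 24 groups of 4 glycerol libraries examined for a sample far from the others, 2 held one, and chance flags about 1 in 20. For Ccr7, WT library 2 lay at 21.2 normalized counts, below the other WT libraries at 35.2 to 38.0. For H2-Eb1, SMA library 3 lay at 1368 normalized counts, below the other SMA libraries at 2653 to 2748.

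None of the members differed between the injuries in its genotype effect by the test of the difference. The class II genes that did, as glycerol minus BaCl2 on the log2 scale, were Ciita by 2.30, H2-Aa by 1.83, H2-Eb1 by 1.62, Cd74 by 1.35, H2-Ab1 by 1.22, H2-DMb1 by 0.98 and H2-DMa by 0.76. Of these, H2-DMb1 did not pass by the t test (adjusted p = 0.056).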

How the results depend on the processing

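After BaCl2, 863 genes passed in the main test, 1692 with DESeq2, 1867 without a low-count filter and 108 with SMA libraries 1 and 2 left out. The class II calls were 3, then 7, 6 and 1, and the member calls fell from 2 to 0 with SMA libraries 1 and 2 left out. After glycerol, 411 genes passed, 2 without a trend, where 0 class II genes passed instead of 11, and 1 member (Irf8, adjusted p = 0.0494) passed among genes with a mean of at least 50. For the difference 1470 genes passed by z and 530 by t. Leaving out 1 library at a time gave 41 to 1577 genes after BaCl2, 0 to 1645 after glycerol and 1004 to 1969 for the difference. Member calls then ranged from 0 to 2, 0 to 3 and 0 to 1, and class II calls from 1 to 6, 0 to 13 and 7 to 8. The highest glycerol values came without SMA library 3 and the lowest BaCl2 count without WT library 3.

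With SMA libraries 1 and 2 left out, the BaCl2 fold changes changed sign for Batf3 (-0.21), Cd209a (-0.073) and H2-Eb1 (0.069), none of which had passed. With 1 library left out, sign changes were likewise confined to values that had not passed. After BaCl2 the values ranged from -0.26 to 0.26 for Batf3, -0.39 to 0.14 for Ccr7, -0.34 to 0.049 for Clec9a, -0.054 to 0.29 for H2-Aa and -0.16 to 0.21 for H2-Eb1. After glycerol Batf3 ranged from -0.073 to 0.13. For the difference, they ranged from -0.23 to 0.29 for Batf3, -0.63 to 0.39 for Flt3, -0.51 to 0.071 for Itgax and -0.20 to 0.040 for Zbtb46. The cause was not tested. Depth limits Xcr1, and to a lesser degree Flt3, after BaCl2.

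Same-numbered SMA and WT libraries did not deviate together (correlations from -0.03 to 0.02 after BaCl2 and -0.07 to 0.07 after glycerol), so the numbers were not taken as pairs. With the replicate block 1144 genes passed after BaCl2, 257 after glycerol (7 class II genes) and 1940 for the difference.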
